A study of Homo sapiens with 4 samples.

Results

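The integrins and the proteins that join them to the actin cytoskeleton at focal adhesions were followed in QK-knockdown U87 cells with and without added miR-20a. The set was a list of 36 genes for integrin chains and cytoplasmic adhesion proteins, and each was represented by every array probe set whose annotation named that gene alone. In this way 35 genes were measured by 96 probe sets, out of 18304 genes and 37465 such probe sets on the arrays. The exception was ITGB6, each of whose 4 probe sets also named a second gene.

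U87 is an established human glioma cell line. The 4 RNA samples all came from U87 cells in which QK, the RNA-binding protein encoded by QKI, had been knocked down, so every group carries the knockdown and no cells without it were analysed here. In the miR-20a group, 2 samples came from cells transduced with that microRNA, and in the miR-NT group 2 came from cells transduced with a scrambled, non-targeting microRNA. The comparison therefore asks which transcripts have other levels once miR-20a is added to the knockdown cells. The labels do not say how the knockdown was made, whether the cells were 1 clone, or whether the samples of a group were cultured apart, so p-values reflect the spread of these samples alone, which may be technical. Each sample was read on 1 array, and levels are log2 units per probe set as deposited. The values carry no detection calls, and the small number of arrays limits the precision.

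Integrins are transmembrane receptors made of 1 alpha and 1 beta chain, and the pair decides which ligand is bound. Alpha-V and alpha-5 belong to receptors that recognise the RGD sequence of fibronectin and vitronectin, another group of alpha chains binds laminins, and a further group binds collagens. Inside the cell talins and kindlins bind the beta tail and activate the receptor. The complex of ILK, PINCH and parvin, the kinase FAK with its adaptors paxillin and p130Cas, and the actin-binding proteins vinculin and zyxin then build the focal adhesion. In glioma cells these receptors are known for their part in adhesion to, and migration through, the brain's matrix.

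The microRNA supplied to the cells acts through its seed, bases 2 to 8 of the mature strand, which pairs with messenger RNAs. The mature 5p strand in RefSeq (GRCh38.p14, plus strand, chr13:91351072-91351094) is shown because it is the agent that separates the groups, with the seed in capitals. The labels do not name the arm, and matches to this seed in the members' transcripts were not searched here.
hsa-miR-20a-5p: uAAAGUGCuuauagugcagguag

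One integrin chain rose past the threshold, ITGAV, by 1.83-fold, and no member fell past it. ITGB1, the beta-1 chain, was 1.42-fold higher in mean and ITGA7, ITGA3, TLN1 and ZYX were lower in mean, without passing. With 1 probe set a gene, the one with the highest mean, 1 of 35 members was called by limma (adjusted p under 0.05 over all genes), where 0.426% of all genes were called, 0.366% higher and 0.0601% lower. When every probe set was tested, 0 of 96 member probe sets were called (limma, smallest adjusted p = 0.0865), against 0.136% of all probe sets, and 25 had an unadjusted p under 0.05, against 17.9% of all. At an unadjusted p under 0.05 in the gene fit there were 12 members, against 21.8% of all genes. Of these, 4 were higher in miR-20a cells (12.6% of all genes) and 8 lower (9.24% of all genes).

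Most members moved little. The 2 groups of arrays did not overlap for 22 of 35 members, 7 higher and 15 lower, where 25.5% of all genes did not overlap on the higher side and 27% on the lower side, 52.5% in all. At the level of probe sets, 49 of 96 did not overlap, against 48.9% of all probe sets. The median log2 change was -0.07 over the members and -0.01 over all genes, and the median size of change regardless of sign was 0.118 over the members and 0.125 over all genes. Higher means were found for 13 members (47% of all genes) and lower means for 22 (53% of all genes).

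Further members were called under other settings. With the lower 40% of genes by level left out, 4 of the 29 remaining members were called, ITGAV and ITGB1 higher and ITGA7 and TLN1 lower, where 11.3% of the remaining genes were called, 8.63% higher and 2.65% lower. With a robust fit that lets variance follow level the same 4 and ITGA3 were called, the last lower, where 6.62% of all genes were called, 5.38% higher and 1.25% lower (limma in both). The first 4 were also those with an adjusted p under 0.10 in the gene fit (limma).

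**Figure D1:**
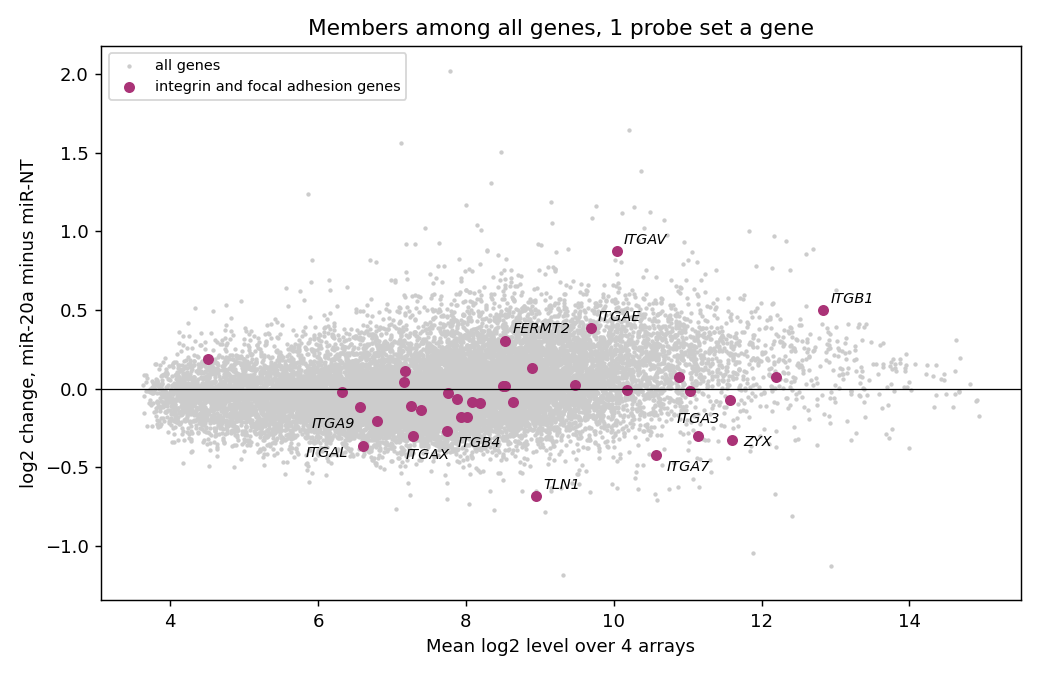
Mean log2 level over the 4 arrays (horizontal axis) against the log2 change, miR-20a minus miR-NT (vertical axis), for all 18304 genes (grey) and the 35 measured members (purple), 1 probe set a gene. Names mark the 12 members with an unadjusted p under 0.05, ITGAV at 0.87 being the highest member and TLN1 at -0.68 the lowest.

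Among the alpha chains of the RGD and fibrinogen receptors, ITGAV, the alpha-V chain that pairs with several beta chains, was the member that rose. Its single probe set read 9.50 and 9.72 log2 units in the miR-NT group against 10.59 and 10.37 in the miR-20a group. Both miR-20a arrays lay above both miR-NT arrays, by more than the arrays of a group lay apart. The change was 0.87 ± 0.12 log2 units (SE), from 9.61 ± 0.16 to 10.48 ± 0.15 (SD, n = 2 each), with a limma adjusted p of 0.0449 over all genes and 0.0865 over all probe sets. Among the fits that pair no samples, the call over all genes was lost after cyclic loess normalization (limma adjusted p = 0.0528), without miR-NT replicate 1 (0.449), without miR-NT replicate 2 (0.174) and without miR-20a replicate 1 (0.0613), while the change stayed between 0.75 and 0.98 under all settings tried.

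ITGA5, the alpha-5 chain of the fibronectin receptor, read 11.05 and 11.01 in the miR-NT group against 10.98 and 11.06 in the miR-20a group. The groups overlapped, and the change of -0.01 had a 95% interval from -0.22 to 0.20 log2 units. ITGA8, a further RGD-binding chain, had negative changes at all 3 probe sets, between -0.14 and -0.06, with overlapping groups at 2 of them. ITGA2B, the fibrinogen receptor chain of platelets, had a change of -0.11 ± 0.09 (SE) at a mean level of 7.26. Another of its 4 probe sets had -0.33 ± 0.10 (limma adjusted p = 0.177). The others, at mean levels of 4.27 and 4.12, had changes of 0.07 and -0.0015 with overlapping groups.

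All 3 laminin-binding alpha chains had lower means in miR-20a cells, at all 5 of their probe sets, though those of ITGA6 read low and their groups overlapped. ITGA7, the alpha-7 chain, best known from muscle, read 10.86 and 10.71 in the miR-NT group against 10.37 and 10.36 in the miR-20a group. Its second probe set read 9.83 and 9.66 against 9.01 and 9.11, so that the groups were apart at both. The changes were -0.42 ± 0.10 (limma adjusted p = 0.141 over all probe sets) and -0.68 ± 0.10 (SE, limma adjusted p = 0.0997). With the mean of all probe sets of each gene, ITGA7 passed the test over all genes (-0.55, limma adjusted p = 0.048). With the median of all probe sets, which for 2 probe sets is the same value, it did not (-0.55, limma adjusted p = 0.0581).

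ITGA3, the alpha-3 chain of a laminin-332 receptor, read 11.35 and 11.23 in the miR-NT group against 10.99 in both samples of the miR-20a group, a change of -0.30 ± 0.09 (SE, limma adjusted p = 0.191). Its groups did not overlap. ITGA6, the alpha-6 chain, had changes of -0.12 ± 0.11 and -0.08 ± 0.11 (SE), with overlapping groups at both probe sets. Their mean levels were low, 6.57 and 3.97 log2 units.

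No collagen-binding alpha chain reached an unadjusted p under 0.05 at the probe set used for the gene. ITGA1 and ITGA11 had changes of 0.04 ± 0.10 and 0.02 ± 0.14 (SE), and ITGA10 of -0.09 ± 0.10. The arrays of ITGA11 were spread, with 8.70 on miR-NT replicate 1 and 8.30 on miR-NT replicate 2. The 2 probe sets of ITGA2 had opposite signs, -0.07 and 0.22. Of the remaining non-leukocyte chains, ITGA4, which binds VCAM1 and fibronectin, had a change of -0.02 ± 0.09 (SE). ITGA9, a receptor chain for tenascin-C, read 6.88 and 6.92 against 6.72 and 6.67, a change of -0.20 ± 0.09 (SE, limma adjusted p = 0.29), and its other 3 probe sets had the opposite sign, between 0.03 and 0.16.

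The leukocyte alpha chains are ITGAE, which pairs with beta-7, and ITGAL and ITGAX, which pair with beta-2. ITGAE read 9.36 and 9.63 in the miR-NT group against 9.81 and 9.95 in the miR-20a group, a change of 0.38 ± 0.12 (SE, limma adjusted p = 0.195). ITGAL read 6.86 and 6.73 against 6.37 and 6.48, a change of -0.36 ± 0.10 (adjusted p = 0.164, limma). At these probe sets neither gene's groups overlapped, and the 2 genes went opposite ways. A second ITGAL probe set, at a mean level of 4.35, had a change of -0.10 ± 0.11 (SE) with overlapping groups. ITGAX read 7.42 and 7.45 against 7.21 and 7.06 at one probe set, a change of -0.30 ± 0.10, while the other had a change of 0.07 ± 0.09 (SE).

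Blood cell markers were read beside these genes. Of the 9 listed, 7 were measured, 3 with higher (47% of all genes) and 4 with lower means (53%). In the gene fit 0 were called (limma, 0.426% of all genes), and 1 was lower at an unadjusted p under 0.05 (9.24% of all genes). Their summed level, on the linear scale, was 1138 and 1199 in the miR-NT group against 1059.8 and 1209.6 in the miR-20a group, so the groups overlapped. PTPRC, the leukocyte common antigen, was at 6.58 and 6.66 log2 units in the 2 groups and CD14 at 6.38 and 6.40. The miR-20a arrays of PTPRC were spread, at 6.34 and 6.99, and 2 of its 5 probe sets had a positive sign. CD3E, the marker with an unadjusted p under 0.05, was lower, at 7.99 and 7.72 (limma unadjusted p = 0.0228). HBB was at 8.34 and 8.32 and CD79A at 7.77 and 7.84. Among other members, ITGAL (6.61), ITGA9 (6.80), ITGAX (7.29), ITGB4 (7.75) and FERMT3 (8.02) had mean levels below the 8.33 of HBB. The deposited values do not separate such levels from background, so changes of these members may not reflect expression. The labels name U87 cells alone in all 4 samples. The parts of background signal and of RNA from any other cell in these values were not tested.

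**Figure D2:**
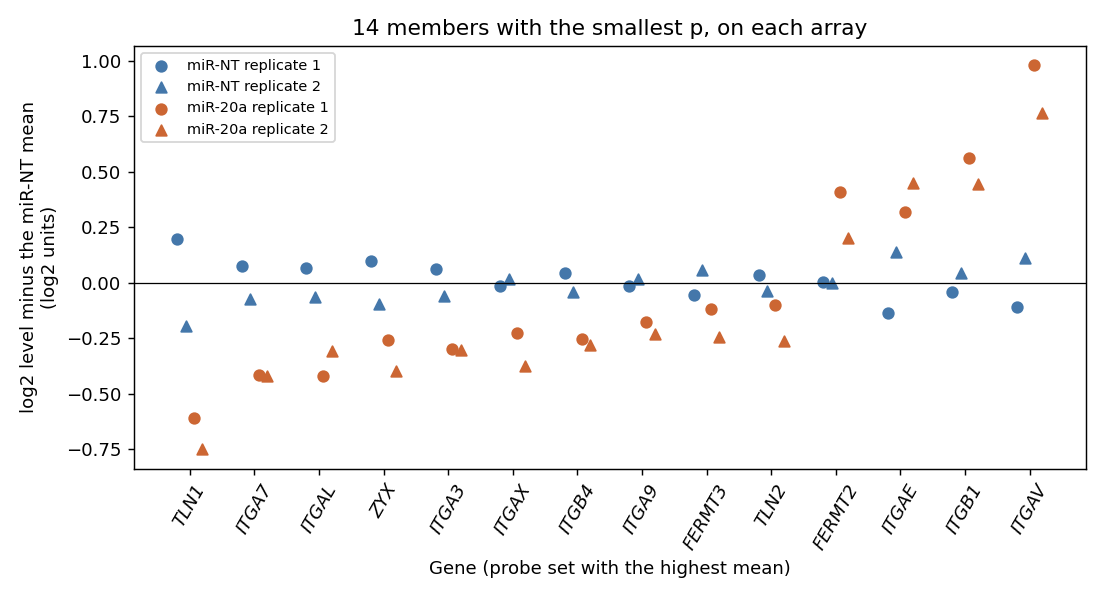
Log2 level on each of the 4 arrays minus the miR-NT mean (vertical axis, log2 units) for the 14 members with the smallest p, ordered by change (horizontal axis), with miR-NT arrays in blue, miR-20a arrays in orange, replicate 1 as circles and replicate 2 as triangles. ITGAV is highest and TLN1 lowest. In all 14 the 2 orange points lie on one side of both blue points, which choosing by small p favours. The groups did not overlap for 22 of all 35 members, against 52.5% of all genes.

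Among the beta chains ITGB1, the common partner of most alpha chains, had the largest change at the probe sets used for genes. It was read by 7 probe sets. The probe set used for the gene read 12.54 and 12.63 in the miR-NT group against 13.15 and 13.03 in the miR-20a group. The second read 10.76 and 10.55 against 11.26 and 11.07, and the third 10.54 and 10.53 against 11.09 and 10.97. At all 3 the groups were apart, and the changes were nearly equal, 0.50 ± 0.10, 0.51 ± 0.12 and 0.49 ± 0.09 (SE), with limma adjusted p-values of 0.13, 0.141 and 0.129 over all probe sets and 0.0773 for the first over all genes. The remaining 4 probe sets of ITGB1 read between 3.99 and 5.51 on every array. One of these had a change of 0.31 ± 0.09 and the others lay between -0.07 and 0.04, and the change of ITGB1 was 0.26 with the mean level of all 7 and 0.03 with their median level.

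ITGB3, the beta-3 chain of the vitronectin and fibrinogen receptors, also had 7 probe sets, and they did not share a sign. The probe set used read 8.52 in both miR-NT samples against 8.60 and 8.48 in the miR-20a group, a change of 0.02 ± 0.09 (SE). Changes at the other 6 ran from -0.33 ± 0.10 to 0.36 ± 0.13. The 3 negative ones belonged to the 3 probe sets with the lowest levels, which read 6.72 or less on every array. After quantile normalization the range of ITGB3 was -0.29 to 0.32. In the deposited values change and mean level were related across all probe sets (Spearman rho = 0.22, across probe sets, which are not independent replicates). Across genes rho was 0.29. After quantile normalization it was -0.017 across probe sets and 0.003 across genes, and after cyclic loess -0.007 and 0.004. This relation touches the change of every member.

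ITGB5, the beta-5 chain that pairs with alpha-V, read 10.90 and 10.80 against 10.92 and 10.94, a change of 0.08 ± 0.09 (SE). This turned to -0.09 after quantile and -0.06 after cyclic loess normalization. Another of its probe sets had 0.24 ± 0.09, the next 0.19 ± 0.10, and the lowest, at 6.04 and 5.54 in the 2 groups, -0.50 ± 0.13 (limma adjusted p = 0.164). ITGB4, the laminin-binding beta-4 chain of hemidesmosomes, read 7.92 and 7.84 against 7.63 and 7.60, a change of -0.27 ± 0.09 (adjusted p = 0.21, limma), with a negative sign at 3 of 5 and a change of 0.05 with the median level of the 5. The leukocyte chain ITGB2 had changes of 0.11, -0.26 and 0.00 at its 3 probe sets, and ITGB7, a partner of alpha-4 and alpha-E, had -0.03 ± 0.09 (SE).

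**Figure D3:**
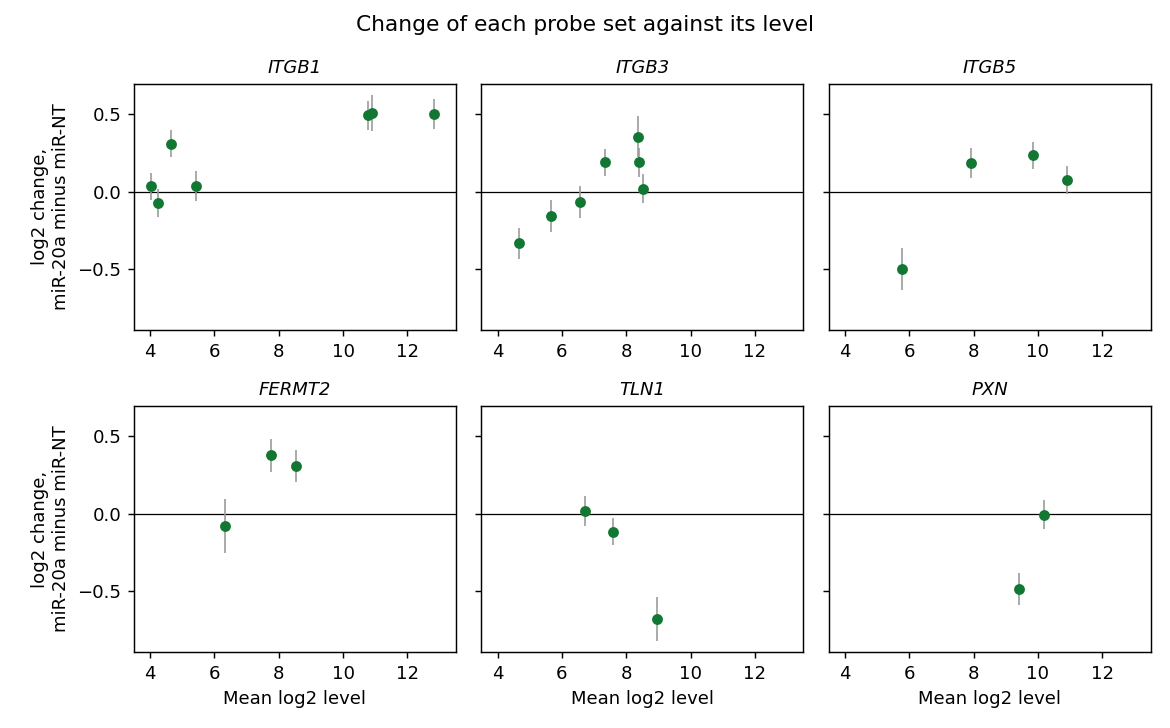
Log2 change, miR-20a minus miR-NT (vertical axis, bars show the SE from limma), against the mean log2 level over 4 arrays (horizontal axis) for each probe set of 6 members. The 3 ITGB1 probe sets above 10 log2 units lie together near 0.50, whereas the 2 PXN probe sets lie at -0.01 and -0.49.

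ITGAV and ITGB1 encode chains that can pair in 1 receptor, and both had higher means on both miR-20a arrays. The 250 bases before each gene's start are shown from RefSeq (GRCh38.p14), 5′ to 3′ on the gene's strand, because these members had the largest positive changes, with GC boxes (GGGCGG on either strand) in capitals. The first lies at chr2:186589806-186590055 on the plus strand and the second at chr10:32958231-32958480 on the minus strand, and each gene has another start in the table.
ITGAV: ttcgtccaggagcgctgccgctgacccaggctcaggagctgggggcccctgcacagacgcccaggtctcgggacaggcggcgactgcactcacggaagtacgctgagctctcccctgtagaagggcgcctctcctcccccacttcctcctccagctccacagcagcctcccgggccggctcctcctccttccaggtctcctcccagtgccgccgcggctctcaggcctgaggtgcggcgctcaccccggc
ITGB1: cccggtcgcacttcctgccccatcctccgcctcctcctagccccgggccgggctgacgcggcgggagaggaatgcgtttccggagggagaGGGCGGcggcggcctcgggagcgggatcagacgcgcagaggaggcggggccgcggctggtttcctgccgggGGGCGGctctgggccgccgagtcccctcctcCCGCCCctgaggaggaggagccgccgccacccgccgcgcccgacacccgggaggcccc

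The ITGB1 window held 3 GC boxes and the ITGAV window 0. Across 35116 windows of this length of the RefSeq set, 42.6% held at least 1, and 20 of the 39 windows of the 25 members found in the table did. Neither window held an AP-1 element (TGAGTCA, 4.2% of all windows), a TATA box (TATAAA, 10.7%) or the palindromic SMAD element GTCTAGAC (0.18%), each searched on both strands. A match or its absence describes these letters only.

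Talins and kindlins bind integrin beta tails and switch the receptors on. TLN1, the broadly expressed talin-1, had the largest negative change at the probe sets used for genes. Its highest probe set read 9.49 and 9.10 in the miR-NT group against 8.68 and 8.54 in the miR-20a group. The groups did not overlap, but the miR-NT arrays lay further apart than the miR-20a arrays, and the change of -0.68 ± 0.14 (SE) did not pass (limma adjusted p = 0.138 over all probe sets and 0.0845 over all genes). The other probe sets of TLN1 had changes of -0.12 ± 0.09 and 0.02 ± 0.10, and with the mean over all 3 the change was -0.26. TLN2, talin-2, read 8.06 and 7.99 against 7.93 and 7.76, a change of -0.18 ± 0.10 (adjusted p = 0.389, limma), with 2 of 3 probe sets of that sign and a change of 0.07 with their median level.

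FERMT2, kindlin-2, the kindlin of most adherent cells, went the other way from TLN1. It read 8.38 in both miR-NT samples against 8.79 and 8.58 in the miR-20a group, a change of 0.31 ± 0.10 (SE, limma adjusted p = 0.212). A second probe set had 0.38 ± 0.11 with groups apart, and the third, whose miR-20a arrays read 6.03 and 6.57, had -0.08 ± 0.17. FERMT3, the kindlin of blood cells, read 8.05 and 8.16 against 7.99 and 7.86, a change of -0.18 ± 0.10. FERMT1, the epithelial kindlin, had negative changes at all 4 probe sets, between -0.18 and -0.01.

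The complex that couples kindlin-bound integrins to actin had no called member. ILK, its scaffold, read 11.58 and 11.63 against 11.54 and 11.53, a change of -0.07 with a 95% interval from -0.28 to 0.14. PARVA, alpha-parvin, had a change of 0.02 ± 0.10 (SE), and its 5 probe sets lay between -0.16 and 0.26. The sign of PARVA turned under quantile normalization, to -0.07. LIMS1, the PINCH-1 adaptor, was named alone only by 3 probe sets that read between 3.90 and 4.73 on every array, with changes from 0.05 to 0.19. At such low levels they say little about LIMS1. The 2 probe sets that name it with other genes had mean levels of 9.45 and 9.77 and changes of 0.17 and 0.43. They are described under the other observations.

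FAK, its adaptors and the actin linkers showed no called change. PTK2, the gene of focal adhesion kinase, had a change of 0.13 ± 0.10 at the probe set used and negative changes at the other 3, between -0.14 and -0.05. BCAR1, which encodes p130Cas, had -0.09 ± 0.09 (SE) and a second probe set had 0.07. The 2 probe sets of PXN, paxillin, differed. One read 10.22 and 10.15 against 10.23 and 10.12, a change of -0.01 ± 0.09. The other read 9.77 and 9.56 against 9.16 and 9.20, a change of -0.49 ± 0.10 (SE, limma adjusted p = 0.138). Whether the 2 probe sets differ from each other was not tested.

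ZYX, zyxin, a LIM protein of mature focal adhesions, read 11.86 and 11.67 in the miR-NT group against 11.51 and 11.37 in the miR-20a group. Its second probe set read 11.62 and 11.44 against 11.26 and 11.22. The groups were apart at both, with changes of -0.33 ± 0.11 and -0.29 ± 0.10 (SE), which did not pass (limma adjusted p = 0.207 and 0.214). VCL, vinculin, read 12.26 and 12.07 against 12.33 and 12.15. Its groups overlapped, and the change of 0.07 had a 95% interval from -0.20 to 0.35, turning to -0.08 after quantile normalization.

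**Figure D4:**
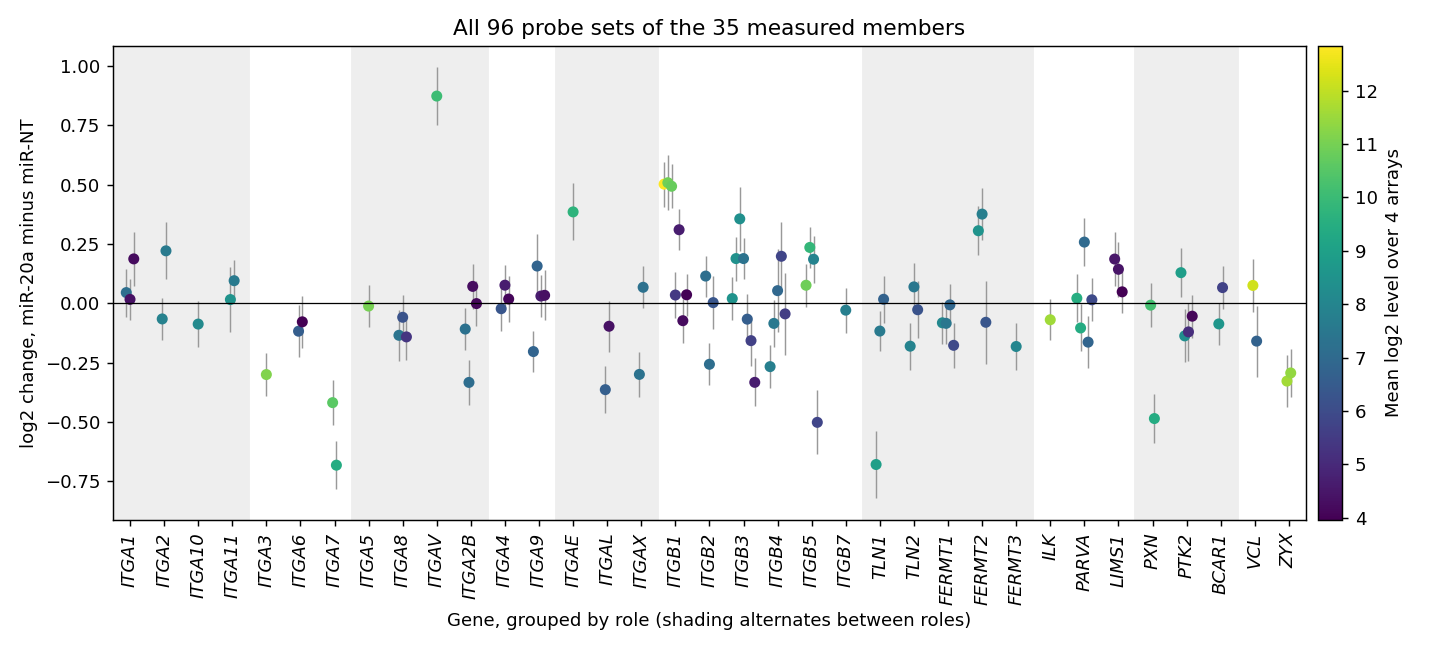
Log2 change, miR-20a minus miR-NT (vertical axis, bars show the SE from limma), of all 96 probe sets of the 35 measured members, grouped along the horizontal axis by role with alternating shading and coloured by mean log2 level. Of the 27 members with several probe sets, 10 had all of them on the same side of 0, among them ITGA7 and ZYX, both lower. No share over all genes is set beside this count, and many of these members have few probe sets, so it is no measure of agreement.

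Other genes of the adhesion machinery were read from a list of 54 regulators, adaptors and further integrin chains, of which 50 were measured. In the gene fit 0 were called (limma), while 13 with higher means (12.6% of all genes) and 9 with lower means (9.24%) had an unadjusted p under 0.05, and the list's median log2 change was -0.02. With a robust fit that lets variance follow level 7 were called higher (5.38% of all genes) and 4 lower (1.25%). ENAH, an actin-elongating protein of the Ena/VASP family, had the smallest p, with a change of 0.54 ± 0.09 (SE, limma adjusted p = 0.0645). RAP1B, a small GTPase that activates integrins through talin, had 0.51 ± 0.09, and ITGB1BP1, which binds the beta-1 tail and competes with talin, 0.47 ± 0.09. CD151, a tetraspanin partner of laminin-binding integrins, had -0.44 ± 0.08. Adjusted p-values of the last 3 lay between 0.0715 and 0.0818 (limma).

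Integrin ligands were read from a list of 42 genes, 39 of them measured. Of these 2 rose (0.366% of all genes) and 1 fell (0.0601%) past the threshold (limma). An unadjusted p under 0.05 was found for 9 with higher means (12.6% of all genes) and 8 with lower means (9.24%), and the median was -0.00. Without either miR-NT replicate 0 were called. THBS1, the matrix glycoprotein thrombospondin-1, rose by 1.64 ± 0.08 log2 units (SE, limma adjusted p = 0.00622). The type I collagen gene COL1A1 rose by 0.76 ± 0.10 (SE, limma adjusted p = 0.0449), with 3 of 5 probe sets positive. The laminin alpha-5 chain gene LAMA5, whose product binds alpha-3 and alpha-6 integrins, fell by 0.73 ± 0.10 (SE, limma adjusted p = 0.0449). The ligand calls depended on the setting. After quantile normalization 1 ligand was called higher and 2 lower, and after cyclic loess 1 and 1 (limma). With the mean or the median of all probe sets the calls were also 1 and 1, and with the replicate block 0. COL4A2, a basement membrane collagen chain, had a change of 0.52 ± 0.09 (adjusted p = 0.0715, limma), and FN1, fibronectin, the ligand of alpha-5 and alpha-V integrins, -0.26 ± 0.09. FN1 was named after its values were seen.

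Facts of the whole series touch all of these results. The arrays correlated at r between 0.9946 and 0.9961 within groups and between 0.9907 and 0.9935 across them. QKI had a level of 9.28 ± 0.14 in the miR-NT group against 9.45 ± 0.11 in the miR-20a group (SD, n = 2, limma adjusted p = 0.385), with overlapping groups. The ACTB level at the 3′ end minus that at the 5′ end, a sign of RNA quality, lay between 0.20 and 0.35 log2 units in the miR-NT group and between 0.46 and 0.52 in the miR-20a group. The same difference for GAPDH was 0.22 log2 units on both miR-NT arrays and between 0.27 and 0.28 in the miR-20a group, and the part of either in the results was not tested. Of the glial markers VIM was at 14.68 and NES at 8.21 log2 units in miR-NT cells, while GFAP was at 7.11 and S100B at 4.90, levels that the files do not separate from background. Of 10 glial and neural stem cell markers 1, CHI3L1, was called, lower (limma), where 0.0601% of all genes were called lower. The summed linear level of the list ran from 38956 to 39596 in the miR-NT group and from 31752 to 33055 in the miR-20a group. Without CHI3L1 the sum ran from 27251 to 28088 and from 26647 to 27497, and the groups overlapped. Of the 10, 8 had lower means (53% of all genes), 3 with an unadjusted p under 0.05 (9.24% of all genes), and the median change was -0.21. In the other lists 0 of 4 platelet, 7 endothelial and 6 epithelial markers were called (limma, 0.426% of all genes). Each list had 1 lower at an unadjusted p under 0.05 (9.24% of all genes).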

How the data were processed

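The deposited table held log2 probe-set levels of 41930 probe sets, 10 of them array controls, on 4 arrays. They were made with affy, an R package, per the submitters' processing notes. How the authors corrected background, normalized and summarized is not given in the sources used here, and the log2 base was inferred from their range. Genes were named through GEO's platform annotation and checked by Entrez identifier against RefSeq (GRCh38.p14, 0 symbols changed). Of the probe sets 37465 named 1 gene, 1727 several and 2728 none.

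The fits used limma 3.58.1 in R 4.3.3 (lmFit, eBayes, intercept and group), once over all 41920 probe sets without the controls and once over 18304 genes with the highest-mean probe set. P-values were two-sided and Benjamini-Hochberg adjusted over each whole table. SEs, intervals and adjusted p-values of members come from the probe-set fit unless the gene fit is named. Values of other genes come from the gene fit. No filter was applied. An exact permutation test of 2 arrays against 2 cannot go below p = 0.333. The fit over all probe sets was tested on simulated data. It recovered 0.9% of changes of 0.5 log2 units, 79.3% of changes of 1 and 96.8% of changes of 1.5. A change that did not pass is therefore not shown to be absent, least of all one of 0.5 or less. Sizes between 0.5 and 1, such as the -0.68 of TLN1, were not simulated, and neither was the gene fit. Members and lists were chosen with earlier results of these data known. By rule, values on every array are given for the 14 members with the smallest p, and 4 genes of each further list are named by smallest p, with any past the threshold. The alternatives tried were a replicate block, quantile and cyclic loess normalization, median centring, a filter on low levels, a trended robust fit, a threshold of 0.10, other ways of joining probe sets and leaving out each array. A crossed block, and for members the median of probe sets, were added after seeing the data.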

Additional observations from a re-analysis of the deposited data

Results flagged for a closer look

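Outside the comparison of genes, the ACTB control read 0.486 log2 units more at its 3′ than at its 5′ end on the miR-20a arrays (mean of 2), above the 0.272 of the miR-NT arrays. Its part in the results on integrin and adhesion genes was not tested.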

How the results depend on the processing

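Over the members, 1 gene was called with the highest-mean probe set, 4 with the lower 40% left out, 5 with a trended robust fit, 4 at a threshold of 0.10, 2 with the mean of all probe sets, 0 after cyclic loess and 0 with the replicate block, and leaving out 1 array gave 0 to 1. Of member probe sets 0 were called, 2 with the lower 40% left out, 8 with the trended robust fit and 2 at 0.10. Over all genes 78 were called, 1239 with the filter, 1212 with the trended fit, 904 at 0.10, 136 with median centring, 153 with the mean of probe sets, 0 with the replicate block, and 0 to 203 without 1 array. Over all probe sets 57 were called, 334 with the filter, 957 with the trended fit, 159 at 0.10, 0 with the replicate block, and 0 to 66 without 1 array. The median-centred gene calls were 122 higher and 14 lower against 67 and 11, and after quantile normalization 73 and 38.

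Same-numbered samples deviated with a correlation of -0.12 and nothing in the labels pairs them. With 0 calls, an unadjusted p under 0.05 was held by 3272 genes with the block. Blocks leave 1 residual degree of freedom, and the replicate block took ITGAV to an adjusted p of 0.253 (limma). The crossed pairing, chosen after seeing the data, called 0 probe sets, 0 genes and 0 members.

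The sign of 16 members turned under some settings. After quantile normalization ITGA4 was at 0.022, ITGA11 at -0.028, ITGB3 at -0.025, ITGB5 at -0.093, VCL at -0.075 and PARVA at -0.071, and after cyclic loess at 0.035, -0.0098, -0.0075, -0.060, -0.073 and -0.069 in turn. Sizes moved too where the sign held. After quantile normalization ITGB1 was at 0.39, ITGA3 at -0.46, ITGA7 at -0.57, ZYX at -0.50, TLN1 at -0.75 and ITGAL at -0.32. After cyclic loess the same genes were at 0.35, -0.44, -0.55, -0.47, -0.74 and -0.31 in turn. Median centring gave ITGA4 0.010, ITGA5 0.022, ITGB7 0.0043 and PXN 0.025. The mean of all probe sets gave ITGA2 0.077, ITGA4 0.024, ITGA9 0.0041, ITGB2 -0.047, ITGB5 -0.0014, VCL -0.042 and PTK2 -0.046. Their median, added for members after seeing the data, gave ITGA2 0.077, ITGA4 0.076, ITGB2 -0.11, ITGB4 0.053, VCL -0.042, TLN2 0.069 and PTK2 -0.13. Without 1 array each, ITGA1 ranged from -0.034 to 0.12, ITGA4 from -0.092 to 0.046, ITGA5 from -0.048 to 0.023, ITGA11 from -0.18 to 0.21, ITGB3 from -0.039 to 0.078, ITGB7 from -0.095 to 0.037, PXN from -0.062 to 0.046, VCL from -0.020 to 0.17 and PARVA from -0.070 to 0.11. The cause was not tested. Of 484 values over members and settings, 422 kept sign and side of the threshold. This count is no measure of stability, because part of it was fixed in advance. The blocks, the filter, the trended fit and the threshold of 0.10 leave the change as it was, so no sign could turn there. Joining probe sets cannot alter the change of a member with a single probe set. All members but ITGAV were uncalled to begin with.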

Other observations

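Members that share a probe set with another gene entered no count above. The 2 LIMS1 probe sets that also name LIMS4, 1 of them LIMS3 as well, are given first. The first read 9.21 and 9.50 log2 units in the miR-NT group against 9.60 and 9.46 in the miR-20a group, with overlapping groups and a change of 0.17 ± 0.12 (SE). The second read 9.51 and 9.61 against 10.06 and 9.91, a change of 0.43 ± 0.10 (SE, limma adjusted p = 0.142). These near-identical copies cannot be told apart by such probe sets.

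The 4 ITGB6 probe sets, each also naming LINC02478, had changes of -0.08, -0.02, 0.05 and 0.34. The last read 5.90 and 5.75 against 6.12 and 6.20, without overlap (limma adjusted p = 0.178). ITGB8, a further partner of alpha-V and one of the 50 measured adhesion genes, had a change of -0.06 ± 0.09 (SE) and was named after its values were seen.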
